A study of Mus musculus with 6 samples.

Results

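Solute carriers are membrane proteins that move nutrients, metabolites, metals and ions across the cell surface and the membranes of organelles. The genes described here are all rows of the deposited count table with a symbol of the form Slc and a number, leaving out the mitochondrial Slc25a carriers and the glucose transporter gene Slc2a3. The rule found 53 genes among the 4162 of the table. Of these, 49 belong to carrier families, and 4 share only the symbol: the scaffold genes Slc9a3r1 and Slc9a3r2, the pseudogene Slc2a4rg-ps, and Slc7a6os, a gene beside the carrier gene Slc7a6. The rule itself used no measured value, but it was set with earlier results of these data known.

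Bulk RNA was sequenced from CD4+ T cells, each library from another mouse: 3 B6.WT and 3 B6.UTX TCD animals. UTX TCD mice lack the histone H3K27 demethylase UTX, encoded by Kdm6a, in T cells. The sources used here do not give the Cre driver, the deleted exons, or the age and sex of the mice. Cells of both genotypes were isolated from spleen as naive CD4+ T cells with a magnetic kit and stimulated for 48 h with anti-CD3 bound to the plate plus dissolved anti-CD28. All the cells were therefore primary activated cells, and no unstimulated sample was analysed here. In bulk RNA, fewer cells of a type and less RNA per cell cannot be told apart.

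A T cell that leaves rest grows and divides, and it raises the import of amino acids, glucose, nucleosides and iron to do so. Amino acid carriers of the SLC1, SLC7 and SLC38 families feed protein synthesis and the mTORC1 kinase complex, which reads amino acid supply at the lysosome. Monocarboxylate carriers of the SLC16 family move lactate out of glycolytic cells, SLC30 and SLC39 carriers set cytosolic zinc, and SLC35 carriers supply nucleotide sugars to the Golgi. SLC4 and SLC9 carriers regulate pH.

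The table holds only part of the transcriptome, and its genes follow the genotype difference. Among 4118 tested genes only 20 had a log2 fold change within 0.1 of 0, a gap seen in the plot of all fold changes. A carrier without a row gives no information, and this includes Slc2a1, Slc3a2, Slc7a1, Slc7a5, Slc7a6, Slc7a11, Slc11a2, Slc16a3, Slc29a1, Slc38a1 and Slc40a1, which were not analysed here. Column totals were 8363326 to 10288306 counts, and members held 0.705% to 0.773% of them. Values are in CPM with TMM scaling, over the total of the listed genes only, and library values are given in the order of replicates 1, 2 and 3. Kdm6a had 286, 281 and 281 CPM in WT against 188, 207 and 179 CPM in the UTX TCD group, and was lower by edgeR (log2 fold change with its SE: -0.56 ± 0.09, adjusted p = 0.00293). Among T cell markers, Cd2 and Lck had rows and 9 of 11 did not, with a summed level of 1982 to 2146 CPM in WT and 2317 to 3034 CPM in UTX TCD. Cd2 rose from a mean of 553 CPM to 1186 CPM (1.10 ± 0.23, edgeR adjusted p = 0.00778), and Lck was at -0.13 and did not pass (edgeR adjusted p = 0.12). Of markers of other cells, only Cd8b1 and Eomes had rows. Cd8b1, of the CD8 coreceptor, rose from 11.6 to 14.5 CPM in WT to 31.5 to 56.2 CPM in UTX TCD libraries, and the part of Cd2 and Cd8b1 in the results below was not tested. No marker of B cells, monocytes or macrophages, dendritic cells or red blood cells had a row.

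All 53 members passed the low-count filter. Slc4a4, Slc9a3r2 and Slc29a4 passed it only through the UTX TCD group, and Slc13a3, Slc30a2 and Slc30a3 only through the WT group. Their direction was thus tied to passing the filter, so their calls add no support. They include the largest rise and the largest fall of all members, and all count among the 2-fold differences below. By edgeR's quasi-likelihood test, 21 were higher and 16 lower in UTX TCD cells at an adjusted p under 0.05, and 16 did not pass. This is 69.8% of members, against 68.0% of all genes tested, and by direction 39.6% against 41.1% higher and 30.2% against 27.0% lower. The shares of called genes were thus near those of the table, and the counts are not a result about carriers as a group. Called differences of at least 2-fold were found for 14 members (26.4%, background 19.5%), 9 higher and 5 lower, where 12.9% and 6.63% of all genes tested were so. The groups did not overlap for 42 members (79.2%, background 85.8%). The median log2 fold change was -0.26 over members and -0.15 over all genes tested. All 16 members that did not pass lay below 0, from -1.10 to -0.11, where 82.9% of such genes in the whole table did. With another scaling that centres the gap on 0, 19 members were higher and 25 lower. With upper-quartile scaling 21 were higher and 12 lower.

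**Figure D1:**
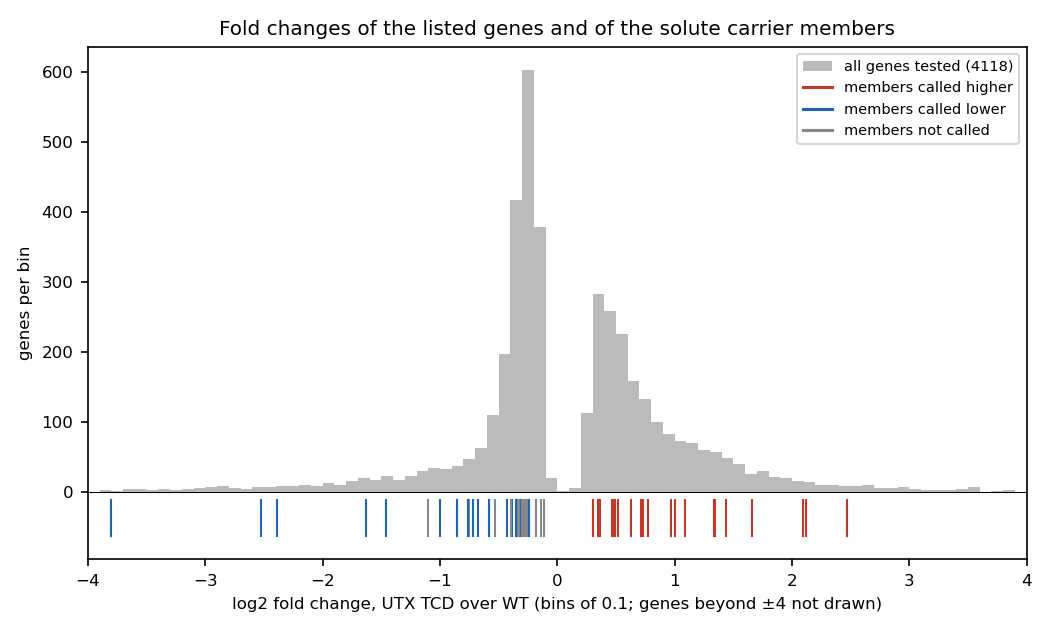
Distribution of log2 fold changes (UTX TCD over WT, x axis, bins of 0.1) over the 4118 tested genes (grey bars, genes per bin on the y axis), with each of the 53 members as a tick below. The bars are nearly empty around 0, and all 16 grey ticks of members that did not pass lie left of it.

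Leaving out a WT library lost more calls than leaving out a UTX TCD library: 22, 25 and 14 of the 37 called members for WT replicates 1, 2 and 3, against 2, 3 and 6 for UTX TCD replicates 1, 2 and 3. Spread within a genotype, as the coefficient of variation beyond counting error, was 8.01% for WT and 22.3% for UTX TCD. Members called were 7 higher and 8 lower when WT replicate 1 was left out, 5 and 7 when WT replicate 2 was, and 11 and 13 when WT replicate 3 was. They were 20 and 16, 19 and 22, and 18 and 14 when UTX TCD replicates 1, 2 and 3 were left out. When the adjustment covered all annotated protein-coding genes, 5 were higher and 6 lower. A set of 12 members was called whichever library was left out, of which 11 are named here: Slc2a9, Slc4a4, Slc28a2 and Slc44a2 higher, and Slc1a2, Slc13a3, Slc16a10, Slc26a10, Slc29a3, Slc30a2 and Slc39a4 lower. Except for Slc39a4, these calls also held under all 8 other alternatives tried. Of the named genes, Slc4a4, Slc13a3 and Slc30a2 had passed the low-count filter only through the group where they were higher.

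**Figure D2:**
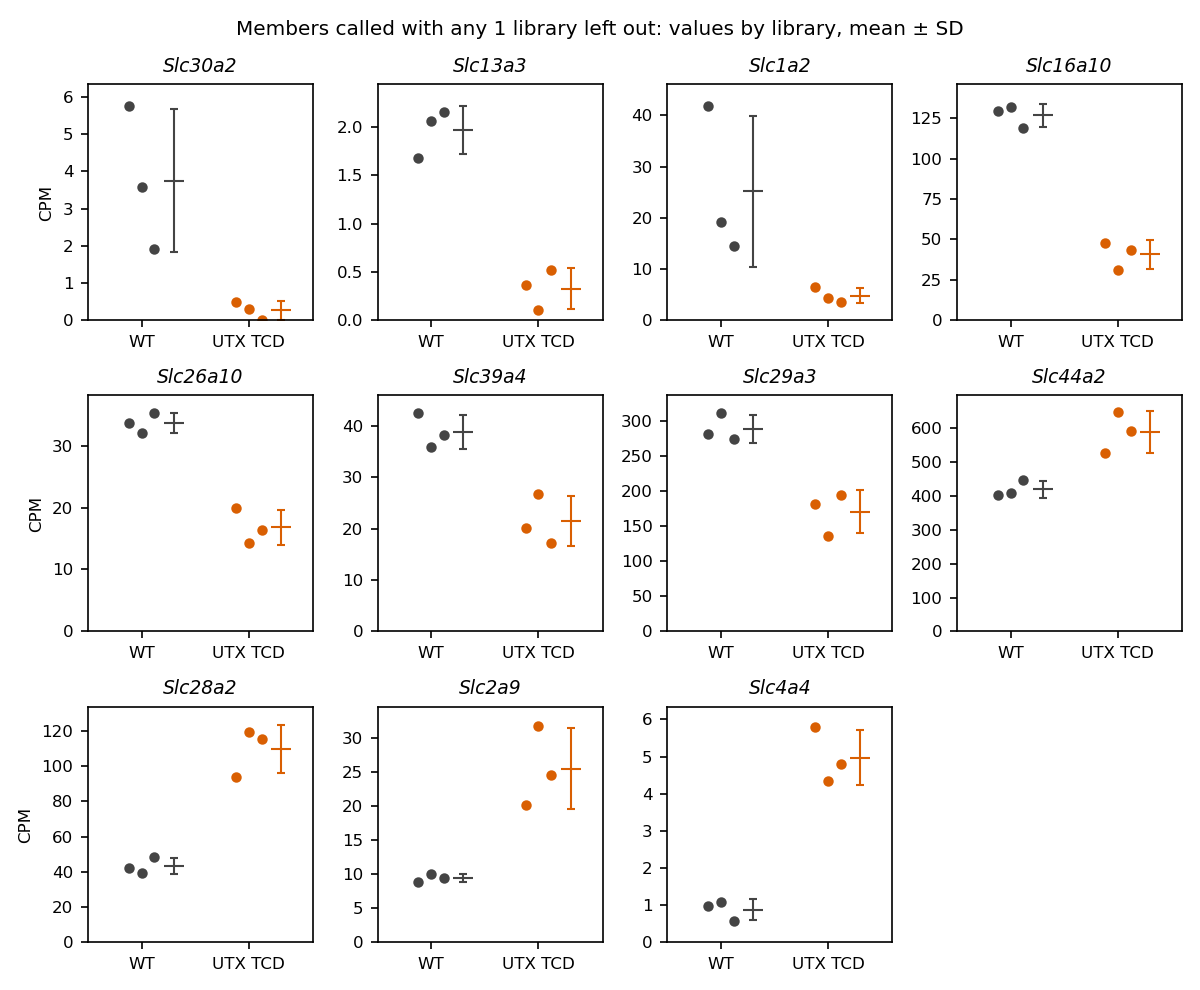
CPM (y axis, from 0) of 11 of the 12 members called with any 1 library left out, for WT (grey) and UTX TCD (orange). Points are libraries, and the bar beside them is the mean ± SD of 3. In none of the 11 panels do the groups overlap, and Slc1a2 and Slc30a2 show the widest WT spread relative to their means.

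Amino acid and peptide carriers moved in both directions. Of 9 members, 4 were higher and 2 lower, with a median log2 fold change of -0.11. The shares were 44.4% higher and 22.2% lower, against 41.1% and 27.0% of all genes tested, whose median was -0.15. Slc1a2, the glutamate transporter EAAT2 best known from astrocytes, fell most. It lies on chromosome 2 from 102658659 to 102790784 (GRCm38). It had 41.9, 19.2 and 14.4 CPM in WT and 6.51, 4.44 and 3.54 CPM in UTX TCD libraries. Every UTX TCD value was below every WT value, although WT replicate 1 stood well above the other WT libraries. The log2 fold change was -2.39 ± 0.45 (edgeR adjusted p = 0.00563), and -1.80 without WT replicate 1. Slc43a1, a carrier of large neutral amino acids, was also lower, with 14.8, 13.6 and 10.7 CPM in WT and 10.1, 6.66 and 7.60 CPM in UTX TCD libraries (-0.68 ± 0.25, edgeR adjusted p = 0.0435).

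The main glutamine carrier gene did not pass. Slc1a5, which encodes ASCT2, was the most abundant member per kilobase of exon (257 CPM per kilobase in WT). It had 1127, 1067 and 1021 CPM in WT against 957, 918 and 965 CPM in the UTX TCD group. The groups did not overlap, with a log2 fold change of -0.18 ± 0.08 and an edgeR adjusted p of 0.0659. It was called without UTX TCD replicate 2 (-0.16), and also under gap-centred scaling (-0.25). Slc6a6, the taurine transporter, was at -0.11 ± 0.10 (edgeR adjusted p = 0.327) and was called only without UTX TCD replicate 2 (-0.21). Slc15a3, a peptide and histidine carrier of endosomes and lysosomes, was at -1.10 ± 0.49 (edgeR adjusted p = 0.071). Its groups overlapped through UTX TCD replicate 2, at 10.9 CPM, and without that library it was called at -1.84. It was also called with limma-voom and with the replicate block. Exons of Slc15a3 share 1541 bases with Tmem132a on the opposite strand.

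Higher amino acid carriers included 2 that sense or answer supply. Slc38a2, which encodes SNAT2, a neutral amino acid carrier that cells raise when amino acids are short, had 515, 516 and 525 CPM in WT against 627, 765 and 590 CPM in the UTX TCD group. Its WT values were almost equal, and each UTX TCD value lay above them (log2 fold change 0.35 ± 0.11, edgeR adjusted p = 0.0256). Without UTX TCD replicate 2 it was 0.22 and still called. Slc38a9, the lysosomal carrier through which mTORC1 senses arginine, had 22.8, 26.7 and 31.2 CPM in WT and 34.6, 50.6 and 39.5 CPM in UTX TCD libraries (0.63 ± 0.19, edgeR adjusted p = 0.0249). Slc6a8, the creatine transporter, rose from 2.67, 3.90 and 3.75 CPM to 5.90, 7.82 and 6.46 CPM (0.97 ± 0.28, edgeR adjusted p = 0.0207). Slc6a9, the glycine transporter GlyT1, had 6.74, 6.40 and 5.34 CPM in WT and 9.52, 39.9 and 8.96 CPM in UTX TCD libraries. UTX TCD replicate 2 decided its size: the log2 fold change was 1.66 ± 0.59 with it (edgeR adjusted p = 0.0376) and 0.57 without it. Exons of Slc6a9 share 1429 bases with Ccdc24 on the opposite strand, and the sources used here give no strand setting for the counting. Of these calls, only that of Slc1a2 held whichever library was left out. Those of Slc38a2, Slc6a8 and Slc6a9 were lost without any 1 WT library, that of Slc38a9 without WT replicate 1 or 2, and that of Slc43a1 without any library but UTX TCD replicate 1. Slc43a1 was also not called with RLE or upper-quartile scaling or with DESeq2, and Slc6a9 with limma-voom.

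All 5 members of the class of sugar, monocarboxylate and carboxylate families passed, 1 higher and 4 lower, with a median of -0.58. Among all genes tested 68.0% passed, 41.1% higher and 27.0% lower, with a median of -0.15. Slc5a6, of a family assigned to this class, was counted with the vitamins and did not pass. Slc16a10, a carrier of aromatic amino acids and thyroid hormones in the monocarboxylate family, had the smallest p of the members that fell. It had 129, 132 and 119 CPM in WT and 48.1, 31.0 and 43.4 CPM in UTX TCD libraries, 3.10-fold lower. The log2 fold change was -1.63 ± 0.16 (edgeR adjusted p = 7.69e-04), with a range of -1.76 to -1.48 over the 6 fits that leave out 1 library. It lies on chromosome 10 from 40033532 to 40142258. Slc16a1, which encodes the lactate and pyruvate carrier MCT1, was the second most abundant member per kilobase of exon and had 854, 878 and 792 CPM in WT against 685, 539 and 653 CPM in the UTX TCD group. The fall was smaller than that of Slc16a10 but the groups did not overlap (-0.43 ± 0.11, edgeR adjusted p = 0.014). Slc16a6, of the same family, went from 126, 119 and 102 CPM to 97.6, 64.2 and 70.8 CPM (-0.58 ± 0.17, edgeR adjusted p = 0.0213). Its exons share 1052 bases with Amz2 on the opposite strand. The calls of Slc16a1 and Slc16a6 were lost without WT replicate 1 or 2, and that of Slc16a6 also without UTX TCD replicate 3.

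The promoters of 3 genes are shown because the series' title concerns hypoxia: Slc16a10 and Slc28a2, the members with the smallest p among those that fell and those that rose, and Slc16a1, the most abundant Slc16a member. Each sequence is the 250 bases before the RefSeq start on the gene's own strand (GRCm38.p6). That start lies 42 bases from the GENCODE gene start for Slc28a2, and 4 bases from it for Slc16a10 and for Slc16a1. Bases just after it were found in 0 of 5 GENCODE transcripts of Slc28a2, 1 of 1 of Slc16a1 and 3 of 4 of Slc16a10. The start used for Slc28a2 is therefore less certain. Capitals mark ACGTG and GCGTG, the core of the site bound by hypoxia-inducible factors, on either strand. CACGTG, the E-box bound by MYC and related factors, contains the first of these.
Slc16a10, chr10:40142255-40142504, minus strand: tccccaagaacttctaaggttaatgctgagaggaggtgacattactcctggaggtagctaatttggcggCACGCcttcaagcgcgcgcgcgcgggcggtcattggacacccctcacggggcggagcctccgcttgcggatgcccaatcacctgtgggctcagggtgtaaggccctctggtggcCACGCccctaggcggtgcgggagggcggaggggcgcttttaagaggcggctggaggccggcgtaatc
Slc16a1, chr3:104638414-104638663, plus strand: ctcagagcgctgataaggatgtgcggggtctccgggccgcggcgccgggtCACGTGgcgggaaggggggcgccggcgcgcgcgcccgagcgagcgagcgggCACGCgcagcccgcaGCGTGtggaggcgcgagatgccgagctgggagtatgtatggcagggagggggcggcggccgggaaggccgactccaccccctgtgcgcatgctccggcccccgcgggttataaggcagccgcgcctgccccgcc
Slc28a2, chr2:122426185-122426434, plus strand: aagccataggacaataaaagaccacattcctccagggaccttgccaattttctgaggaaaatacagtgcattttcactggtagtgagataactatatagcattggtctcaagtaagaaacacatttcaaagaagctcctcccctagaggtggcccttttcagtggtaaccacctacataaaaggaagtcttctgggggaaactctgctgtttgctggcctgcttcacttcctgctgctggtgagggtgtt

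The Slc16a10 window held 2 GCGTG matches and no ACGTG, with 64.4% G and C and 21 CpG sites. The Slc16a1 window held 1 CACGTG and 2 GCGTG matches, with 76.4% G and C and 37 CpG sites. The Slc28a2 window held none of these motifs, with 45.2% G and C and 0 CpG sites. Promoters were found in RefSeq for 37 of the 53 members. ACGTG on either strand was present for 5 of 12 lower members with a promoter, Slc13a3, Slc16a1, Slc30a2, Slc30a3 and Slc43a1, and for 1 of 15 higher members, Slc22a17. Over the 27025 genes with a RefSeq promoter its share was 18.5%. That set was not limited to the genes of the table, and no share over the tested genes was computed. A gene counted once if any of its windows held a match. GCGTG was present for 6 of 12 and 6 of 15, and in 30.9% of the 27025 genes. Among members not called, ACGTG was present for 1 of 10 and GCGTG for 7 of 10. Over all 37 members with a promoter the shares were 18.9% and 51.4%, so GCGTG was most frequent in the members that were not called. CACGTG was present for 3 of 12 and 0 of 15, for 0 of 10 not called, and in 6.86% of the 27025 genes. A match describes the letters only, and no binding was measured here.

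Slc2a9, which encodes the urate transporter GLUT9 of the hexose carrier family, was the member of these families that rose. It had 8.82, 9.98 and 9.42 CPM in WT and 20.1, 31.8 and 24.6 CPM in UTX TCD libraries, 2.71-fold higher (log2 fold change 1.44 ± 0.22, edgeR adjusted p = 0.00301). It lies on chromosome 5 from 38349273 to 38503143. Slc13a3, a sodium-coupled carrier of dicarboxylates such as succinate, was at low counts. It had 17, 19 and 19 counts in WT against 3, 1 and 5 in the UTX TCD group (-2.53 ± 0.54, edgeR adjusted p = 0.00814). Its gene lies on chromosome 2 from 165405028 to 165473230.

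**Figure D3:**
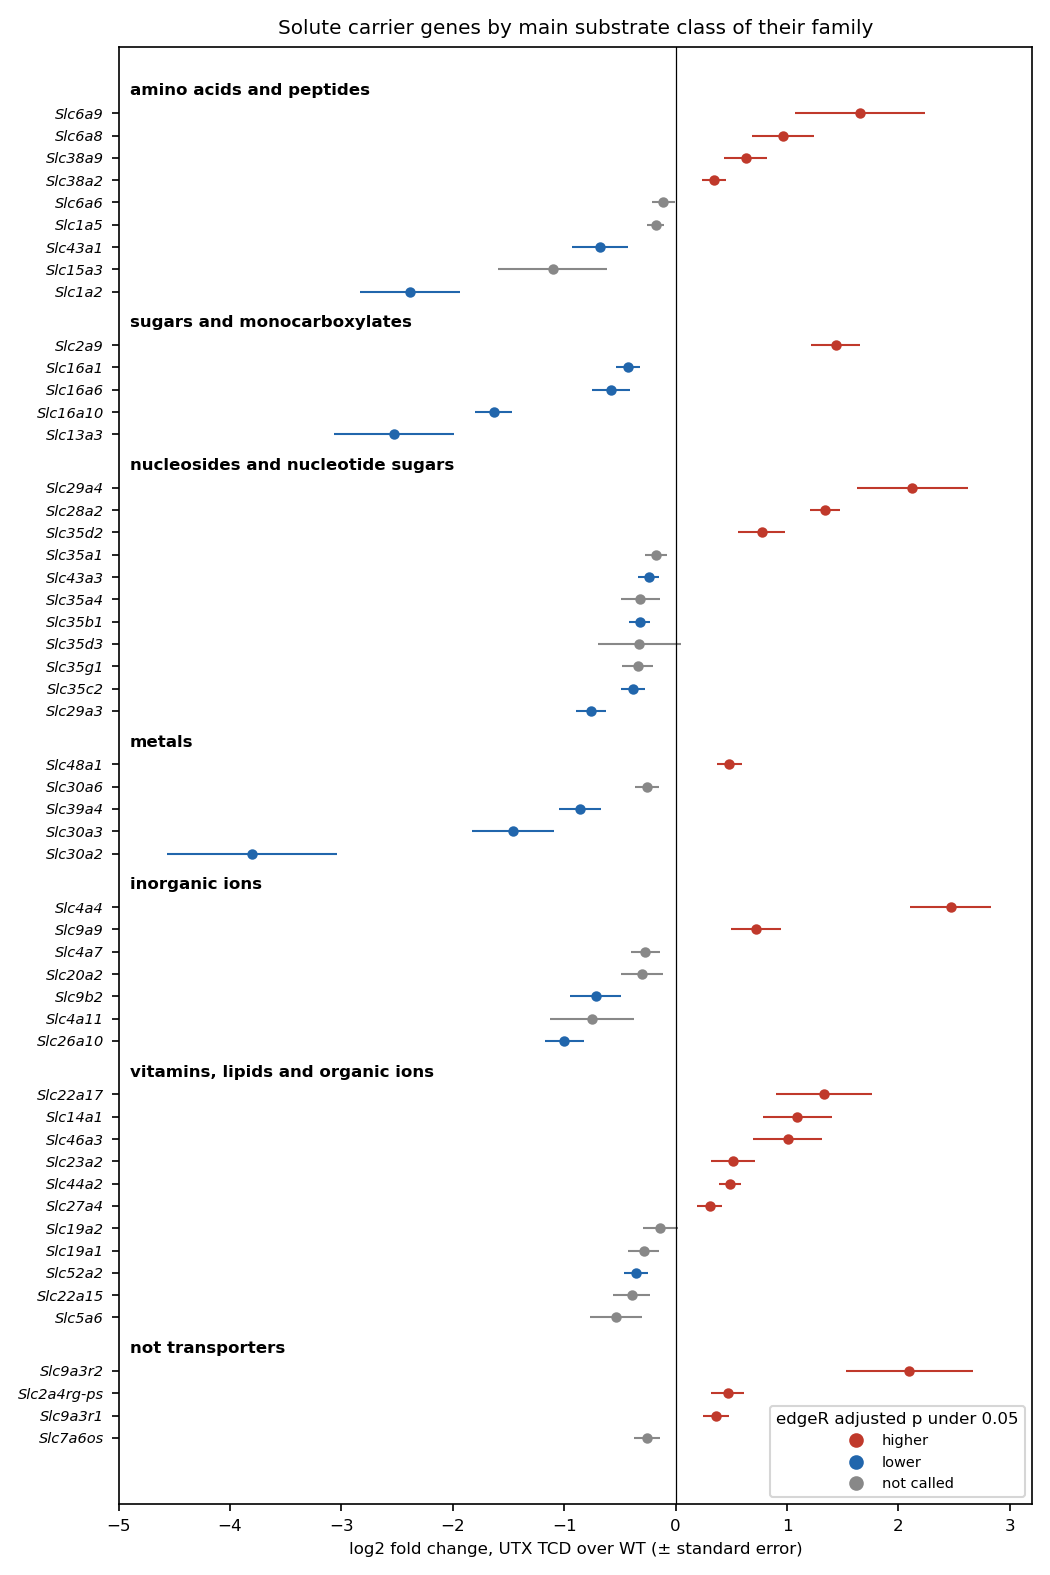
Log2 fold change (UTX TCD over WT, x axis) with its standard error for 52 of the 53 members, grouped by substrate class and coloured by call. All 3 Slc16a members lie left of 0, and the vitamin, lipid and organic ion group has 6 red points against 1 blue.

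Among 11 members classed with carriers of nucleosides, nucleobases and nucleotide sugars, 3 were higher and 4 lower, with a median of -0.32. The shares were 27.3% higher and 36.4% lower, against 41.1% and 27.0% of all genes tested. Slc28a2, which encodes CNT2, a sodium-coupled importer of purine nucleosides at the cell surface, rose in every library. It had 42.1, 39.4 and 48.2 CPM in WT and 94.0, 119.5 and 115 CPM in UTX TCD libraries, 2.53-fold higher (log2 fold change 1.34 ± 0.13, edgeR adjusted p = 7.64e-04). It lies on chromosome 2 from 122426477 to 122461137. Slc29a3, which encodes ENT3, an equilibrative nucleoside carrier of lysosomes, went the other way. It had 282, 312 and 275 CPM in WT against 182, 137 and 194 CPM in the UTX TCD group (-0.76 ± 0.14, edgeR adjusted p = 0.00514), on chromosome 10 from 60712072 to 60752794. The groups did not overlap. Slc29a4, a carrier of monoamines and adenosine, had only 3, 5 and 8 counts in WT against 27, 25 and 17 in the UTX TCD group (2.12 ± 0.50, edgeR adjusted p = 0.0114).

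Most members of the SLC35 family were slightly lower or did not pass. They were placed in this class by family number, not by a known substrate of each. Slc35d2, which carries UDP-sugars into the Golgi, was the exception and rose from 13.2, 13.5 and 13.4 CPM to 19.9, 29.0 and 19.5 CPM (0.77 ± 0.21, edgeR adjusted p = 0.0178). Slc35c2, a Golgi carrier linked to fucosylation, fell from 122, 114 and 109 CPM to 97.1, 79.1 and 89.3 CPM (-0.38 ± 0.11, edgeR adjusted p = 0.0183). Slc35b1, of the endoplasmic reticulum, fell by 0.32 ± 0.10 on the log2 scale, and Slc43a3, a purine nucleobase carrier, fell by 0.24 ± 0.09. Slc35a1, the carrier of CMP-sialic acid, Slc35a4, Slc35d3 and Slc35g1 were between -0.34 and -0.18 and did not pass (edgeR adjusted p = 0.119, 0.129, 0.412 and 0.0598). Slc35d3 was at 0.017 without UTX TCD replicate 3. Slc35a4 was called without UTX TCD replicate 2 (-0.12), Slc35g1 without WT replicate 3 (-0.47) and with the replicate block, and Slc35a1 and Slc35g1 with gap-centred scaling. The calls of Slc28a2 and Slc29a3 held whichever library was left out. The call of Slc29a4 was lost without WT replicate 2, that of Slc35c2 without WT replicate 1 or 2, and those of Slc35b1 and Slc35d2 without any 1 WT library. The call of Slc43a3 was lost without any library but UTX TCD replicate 2, and with RLE or upper-quartile scaling, DESeq2 or the replicate block. That of Slc35b1 was also lost with upper-quartile scaling.

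Of 5 metal carriers, 3 were lower, all of the zinc families, and 1 was higher, with a median of -0.86. Over all genes tested, 27.0% were lower and 41.1% higher, with a median of -0.15. A difference of the class from all genes was not tested. Slc39a4, which encodes the zinc importer ZIP4, had 42.5, 35.9 and 38.4 CPM in WT and 20.2, 26.9 and 17.3 CPM in UTX TCD libraries (log2 fold change -0.86 ± 0.19, edgeR adjusted p = 0.00978). The groups were separate, and the gene lies on chromosome 15 from 76612383 to 76617384. Slc30a2, which encodes the zinc exporter ZnT2, showed the largest fall of all members at -3.80 ± 0.76 (edgeR adjusted p = 0.00701). It rested on few reads, with 58, 33 and 17 counts in WT against 4, 3 and 0 in the UTX TCD group. Slc30a3, encoding ZnT3, known for loading zinc into synaptic vesicles, had 26, 31 and 26 counts in WT against 12, 9 and 8 in the UTX TCD group (-1.46 ± 0.37, edgeR adjusted p = 0.0139). Slc30a6, a zinc carrier of the Golgi, was at -0.26 ± 0.11 and did not pass (edgeR adjusted p = 0.0597). It was called without UTX TCD replicate 2 (-0.32), and also under gap-centred scaling (-0.33). Slc48a1, the heme transporter HRG1 of endosomes and lysosomes, rose from 90.6, 82.9 and 91.6 CPM to 118, 141 and 112 CPM (0.48 ± 0.11, edgeR adjusted p = 0.0107). The calls of Slc30a3 and Slc48a1 were lost without WT replicate 2.

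Carriers of inorganic ions had 3 higher and 2 lower of 8, with a median of -0.29. The shares were 37.5% higher and 25% lower, against 41.1% and 27.0% of all genes tested. Slc4a4, which encodes the sodium bicarbonate cotransporter NBCe1, was the largest rise among members (2.47 ± 0.36, edgeR adjusted p = 0.0027). It had 10, 10 and 5 counts in WT against 48, 41 and 46 in the UTX TCD group, and lies on chromosome 5 from 88886818 to 89239653. Slc9a9, the endosomal sodium and proton exchanger NHE9, rose from 8.42, 9.98 and 9.19 CPM to 12.7, 18.6 and 14.4 CPM (0.73 ± 0.22, edgeR adjusted p = 0.0255).

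Of the lower ion carriers, Slc26a10, of the SLC26 anion exchanger family, had 33.7, 32.0 and 35.2 CPM in WT and 19.9, 14.3 and 16.4 CPM in UTX TCD libraries (-0.999 ± 0.173, edgeR adjusted p = 0.00447). Its gene, on chromosome 10 from 127171393 to 127180645, shares 715 exon bases with B4galnt1 on the opposite strand. B4galnt1 was far more abundant, at a mean of 904 CPM in WT against 596 CPM in the UTX TCD group, and was also lower (-0.60). How far its reads enter the count of Slc26a10 was not tested. Slc9b2, which encodes the sodium and proton exchanger NHA2, had 118, 122 and 128 CPM in WT and 50.5, 70.8 and 102.5 CPM in UTX TCD libraries (-0.72 ± 0.23, edgeR adjusted p = 0.0269). Its UTX TCD values spread widely, and the call was lost without any 1 WT library, as was that of Slc9a9. Slc4a7, Slc4a11 and Slc20a2, carriers of bicarbonate, of protons or ammonia, and of phosphate, were at -0.27 ± 0.13, -0.75 ± 0.38 and -0.30 ± 0.19 and did not pass (edgeR adjusted p = 0.0825, 0.0959 and 0.157). Slc4a11 was called without UTX TCD replicate 2 (-1.17) and with the replicate block (-0.86), and Slc4a7 with the replicate block (-0.28) and under gap-centred scaling (-0.35).

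Members classed with carriers of vitamins, lipids, urea and organic ions had 6 higher and 1 lower of 11. This was the substrate class of carriers with a median above 0, at 0.31. The shares were 54.5% higher and 9.09% lower, against 41.1% and 27.0% of all genes tested. With gap-centred scaling 4 were higher and 4 lower, with a median of 0.23, against 1547 higher and 1832 lower of all genes. Slc44a2, a choline transporter-like protein of lymphocytes and other blood cells, had 403, 408 and 447 CPM in WT against 526, 649 and 591 CPM in the UTX TCD group. Every UTX TCD value was above every WT value (log2 fold change 0.49 ± 0.10, edgeR adjusted p = 0.00756), and the call held whichever library was left out. It lies on chromosome 9 from 21320698 to 21355028. Slc14a1, the urea transporter of red blood cells and kidney, had 22.7, 19.96 and 19.1 CPM in WT and 28.9, 67.3 and 35.3 CPM in UTX TCD libraries. UTX TCD replicate 2 was the highest, and the log2 fold change was 1.09 ± 0.31 with it (edgeR adjusted p = 0.0197) and 0.64 without it. Slc46a3, a lysosomal carrier, rose from 3.47, 3.47 and 3.97 CPM to 5.18, 9.94 and 6.77 CPM (1.00 ± 0.31, edgeR adjusted p = 0.0254).

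Slc23a2, the ascorbate importer SVCT2, and Slc22a17 were called higher with overlapping groups. Slc23a2 had 225, 170 and 175 CPM in WT against 304, 316 and 195 CPM in the UTX TCD group (0.52 ± 0.20, edgeR adjusted p = 0.0474). Slc22a17, a receptor for lipocalin-2 in the organic ion carrier family, had 26, 16 and 14 counts in WT against 21, 58 and 60 in the UTX TCD group (1.33 ± 0.43, edgeR adjusted p = 0.0288). Slc27a4, a fatty acid transport protein, rose by 0.31 ± 0.12 (edgeR adjusted p = 0.0453). The lower member was Slc52a2, a riboflavin importer, which fell from 65.7, 68.8 and 60.7 CPM to 51.9, 47.1 and 53.5 CPM (-0.35 ± 0.11, edgeR adjusted p = 0.0261). Slc19a1, the reduced folate carrier, had 331, 326 and 302 CPM in WT against 279, 208 and 301 CPM in the UTX TCD group. UTX TCD replicate 3 lay just below the lowest WT library, and the gene did not pass (-0.29 ± 0.14, edgeR adjusted p = 0.0895). It was called without that library (-0.40), as well as with gap-centred scaling (-0.36). The thiamine carrier Slc19a2, the biotin and pantothenate carrier Slc5a6 and the organic ion carrier Slc22a15 were at -0.14, -0.53 and -0.39 and did not pass (edgeR adjusted p = 0.407, 0.0702 and 0.0617). Slc22a15 was called without UTX TCD replicate 2 (-0.47), and Slc5a6 and Slc22a15 with gap-centred scaling.

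The calls of Slc14a1, Slc22a17, Slc23a2, Slc27a4 and Slc46a3 were lost without any 1 WT library. Those of Slc22a17 and Slc23a2 were also lost without UTX TCD replicate 2, that of Slc23a2 without UTX TCD replicate 1, and those of Slc22a17 and Slc27a4 without UTX TCD replicate 3. The call of Slc52a2 was lost without WT replicate 1 or 2 and with upper-quartile scaling. With gap-centred scaling Slc23a2 and Slc27a4 were not called, with limma-voom Slc23a2, and with the replicate block Slc22a17 and Slc27a4.

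The 4 members that are not carriers had 3 higher and none lower, where 41.1% of all genes tested were higher and 27.0% lower. Slc9a3r1, which encodes NHERF1, a scaffold that anchors carriers and receptors to the cytoskeleton, had 272, 244 and 303 CPM in WT against 309, 371 and 374 CPM in the UTX TCD group (0.36 ± 0.12, edgeR adjusted p = 0.0282). Slc9a3r2, its paralog NHERF2, was at 2, 5 and 7 counts in WT against 18, 29 and 13 in the UTX TCD group (2.10 ± 0.57, edgeR adjusted p = 0.0176). The pseudogene Slc2a4rg-ps was at 0.47 ± 0.15 (edgeR adjusted p = 0.0279), and Slc7a6os did not pass at -0.26 ± 0.12 (edgeR adjusted p = 0.0776). The 3 calls were lost without WT replicate 1 or 2, and that of Slc9a3r1 also without UTX TCD replicate 3. Slc7a6os was called without UTX TCD replicate 1 (-0.33), as well as with gap-centred scaling (-0.33).

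**Figure D4:**
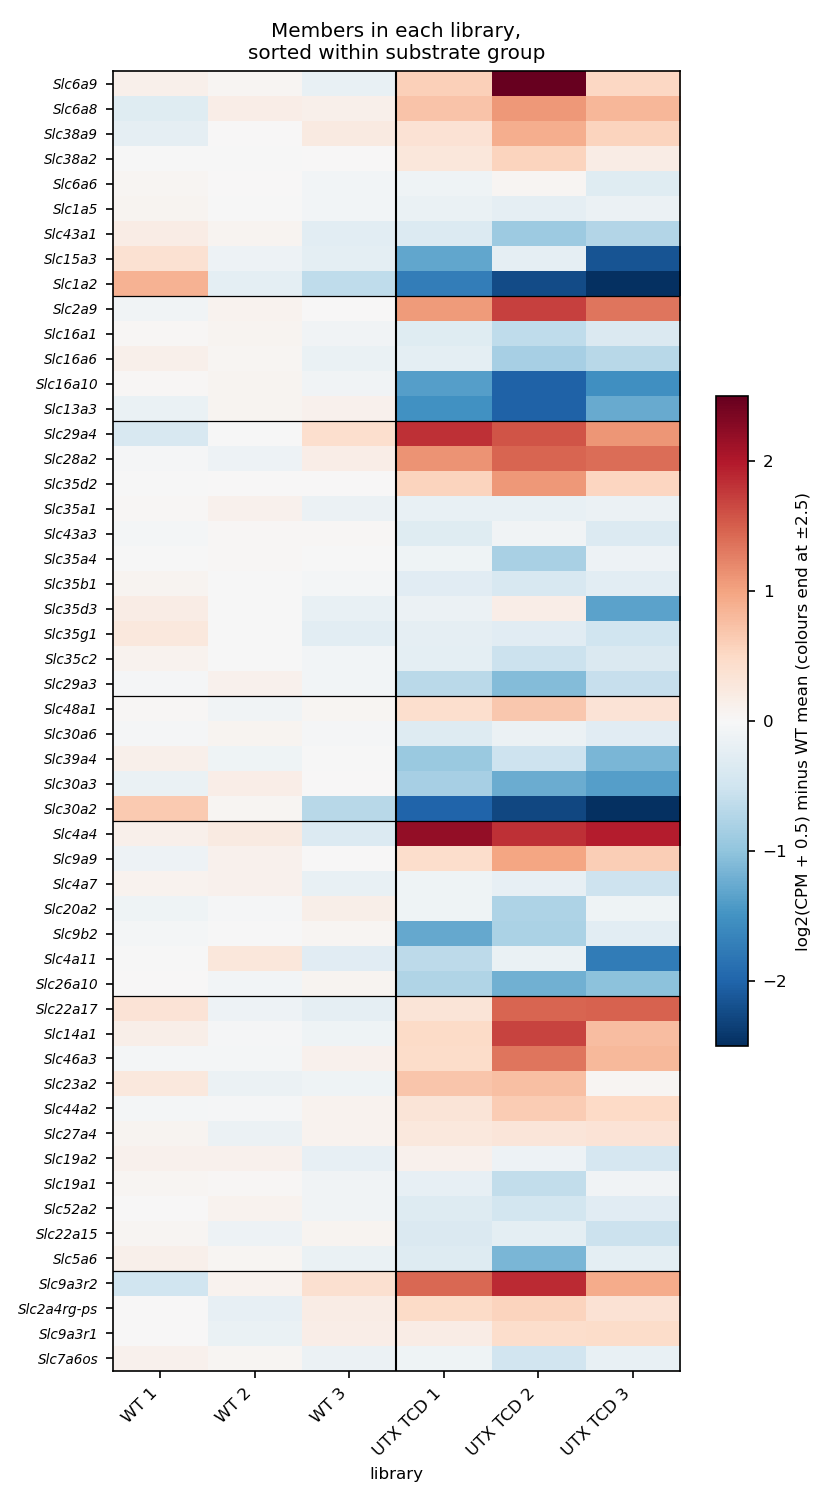
Log2(CPM + 0.5) of 52 of the 53 members (rows, by substrate class in the order used above, ending with the 4 genes that are not carriers) in each of the 6 libraries (columns), minus the WT mean; red is above and blue below. Rows such as Slc6a9, Slc14a1 and Slc35a4 are most strongly coloured in UTX TCD replicate 2.

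Other transport genes of the table also moved both ways. For ABC transporters and P-type ATPases, 35.7% and 33.3% were higher and 21.4% and 41.7% lower. Of all genes tested, 41.1% were higher and 27.0% lower. Of 14 ABC transporters, ATP-driven pumps and exporters, 5 were higher and 3 lower (median -0.16), among them the cholesterol exporter gene Abca1 at 1.62 ± 0.30, Abcg3 at 1.12 ± 0.17 and Abcd3 of peroxisomes at -0.83 ± 0.13. Of 12 P-type ATPases, ion pumps and lipid flippases, 4 were higher and 5 lower (median -0.16), with Atp9a at 0.91 ± 0.14, Atp8a1 at 0.73 ± 0.10 and Atp8b4 at -1.002 ± 0.180. The Mfsd and Slco families, carriers that the symbol rule does not take in, had 5 of 6 lower and none higher (median -0.57), where 27.0% of all genes tested were lower and 41.1% higher (median -0.15). Slco4a1, an organic anion carrier, fell from 101, 108 and 111 CPM to 36.8, 25.5 and 35.8 CPM (-1.71 ± 0.15, edgeR adjusted p = 6e-04). Slco3a1 was at -0.64 ± 0.16 and Mfsd2a, a carrier of lysophospholipids, at -0.45 ± 0.11. Without WT replicate 1 or 2 this list had 2 lower members, and the calls of Slco3a1 and Mfsd2a were lost without WT replicate 1 and that of Slco3a1 also without WT replicate 2. Of 2 vacuolar proton pump genes, Atp6v0a1 was lower at -0.93 ± 0.15.

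Among 5 of 20 fixed genes of T cell ion channels and calcium entry with rows, 3 were higher and 1 lower (median 0.47). The shares were 60% higher and 20% lower, against 41.1% and 27.0% of all genes tested. The volume-regulated channel subunit gene Lrrc8c was at 0.67 ± 0.13, Trpm4 at 0.73 ± 0.20, and Orai1, the pore of store-operated calcium entry, at -0.31 ± 0.08. The calls of Trpm4 and Orai1 were lost without WT replicate 1 or 2. Genes through which mTORC1 senses amino acids had rows for 10 of 36, with 4 higher (40%) and 2 lower (20%) and a median of -0.21. The higher members were larger in size. Sesn3, a sestrin that restrains mTORC1, rose from 415, 398 and 367 CPM to 896, 929 and 711 CPM (1.10 ± 0.12, edgeR adjusted p = 0.001). Rragd, a Rag GTPase that brings mTORC1 to the lysosome, and Fnip1, a partner of folliculin, were at 1.49 ± 0.20 and 1.25 ± 0.18.

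In the list of ATF4 and the amino acid starvation response, 8 of 24 genes had rows, and 3 were higher and none lower (median 0.54). The share called was 37.5%, below the 68.0% of all genes tested. Cebpg was at 0.53 ± 0.14, Vldlr at 1.49 ± 0.44 and Ddit3 at 1.06 ± 0.37. These calls were lost without any 1 WT library, and without UTX TCD replicate 2 the values were 0.33, 0.88 and 0.45. Ddit3 was also not called with limma-voom. Cth, of cysteine synthesis, had 67.1, 76.6 and 44.6 CPM in WT against 11.1, 51.5 and 7.60 CPM in the UTX TCD group. The groups overlapped through UTX TCD replicate 2, and it did not pass (-1.42 ± 0.65, edgeR adjusted p = 0.0751). The serine synthesis gene Phgdh and Atf4 itself were at -0.14 and -0.22 and did not pass (edgeR adjusted p = 0.194 and 0.155). In the MYC network, 5 of 10 genes had rows, and 4 were higher (80%, all genes tested 41.1%). These 4 are MAX partners that oppose MYC, but the list was mostly of such partners, so their kind was largely set by the list. Mxd4, Mxd3 and Mxd1 were at 1.06 ± 0.19, 0.86 ± 0.17 and 0.87 ± 0.21, and Myc itself was not analysed here. The call of Mxd1 was lost without WT replicate 2.

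**Figure D5:**
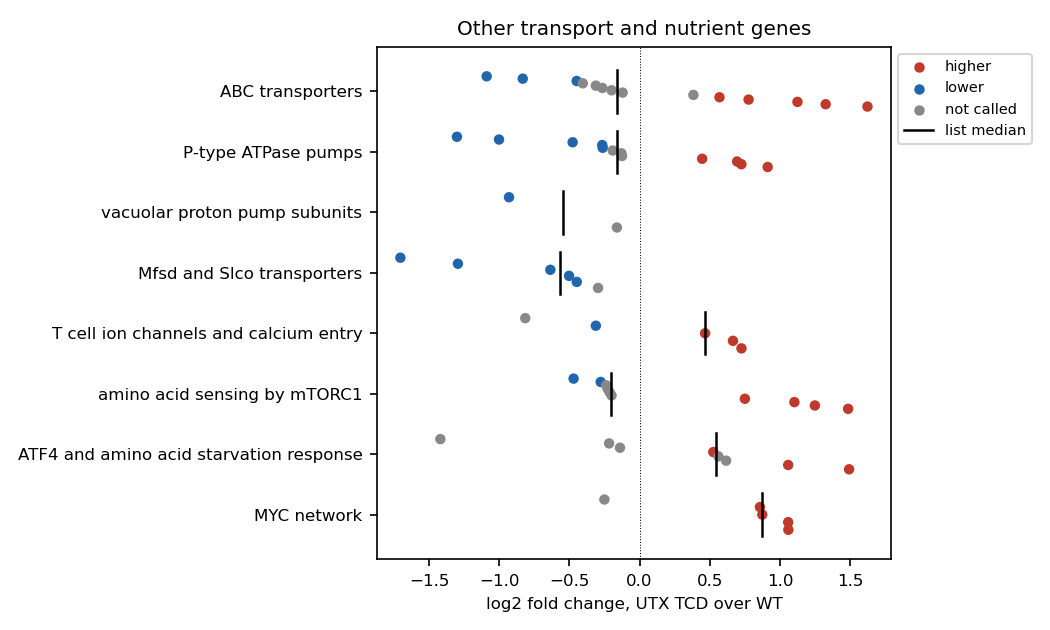
Log2 fold change (UTX TCD over WT, x axis) of each tested gene in 8 lists of other transport and nutrient genes (y axis), coloured by call, with the median of each list as a black bar. The 6 Mfsd and Slco genes all lie below 0, and each of the other lists except the vacuolar proton pump pair has genes on both sides.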

How the data were processed

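The authors deposited one table of whole-number read counts by gene symbol, not normalized. The submitters' processing notes name FastQC, HISAT2 and HTSeq with mm10. The sources used here do not state versions, annotation, strand setting or how rows were selected. Each of the 6 columns was tied to its sample by the genotype and number in the title, and each library is a separate mouse. Genotypes were compared with the quasi-likelihood test of edgeR 4.0.16 in R 4.3.3 over the whole table, after its default filter (minimum count 10, minimum total 15, 44 genes left out), with TMM scaling and Benjamini-Hochberg adjustment over 4118 genes. Adjustment over a selected table counts too few tests, so adjusted p-values are smaller than over all genes. SE is the size of the log2 fold change over the root of F. The fit was run on simulated data in which few genes changed and both genotypes had the same spread. The real data differ in both respects, so that run does not check the calls reported here. DESeq2 1.42.0 and limma 3.58.1 were alternatives. Positions, exon lengths and overlaps come from GENCODE M21, the promoters from RefSeq. Members and lists were chosen with earlier results of these data known. Library values are given for a panel of carriers known in T cells, up to 4 called members per substrate class by p, the 5 largest rises and falls, and some others chosen after their values were seen. Classes follow family numbers, except that Slc43a3 was placed with nucleosides and Slc5a6 with vitamins. The 4 genes that are not carriers were set apart after their symbols were seen. Counts include 1 member whose own values are not reported here.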

Additional observations from a re-analysis of the deposited data

How the results depend on the processing

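Over 14 alternatives, 11 of the 37 called members were called in the same direction each time, and 1 of 53 members changed direction (Slc35d3, 0.017 without UTX TCD replicate 3, with a range of -0.67 to 0.017 when 1 library was left out). Kdm6a stayed lower and called in all 14. The cause of the changes below was not tested, except that counting more tests lowers the counts by construction.

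When the adjustment covered all 21951 annotated protein-coding genes, the counts of higher genes were 5 for all members, 1 for vitamins, lipids and organic ions, 0 for amino acids and peptides, 1 for nucleosides and nucleotide sugars, 0 for metals, 0 for the genes that are not carriers, 3 for ABC transporters, 1 for ion channels, 0 for the ATF4 list, 2 for the MYC network and 630 for all genes. Those of lower genes were 6 for all members, 1 for inorganic ions, 2 for sugars and monocarboxylates, 0 for vitamins, 1 for amino acids, 1 for nucleosides, 1 for metals, 2 for P-type ATPases, 1 for Mfsd and Slco, 0 for ion channels, 0 for mTORC1 sensing and 296 for all genes.

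With gap-centred scaling, lower genes were 25 for members, 4 for vitamins, 1 for the genes that are not carriers, 6 for ABC transporters, 2 for proton pumps, 6 for mTORC1 sensing, 1 for the MYC network and 1832 for all genes. Medians were -0.33 for members, -0.36 for inorganic ions, -0.39 for nucleosides, -0.24 for P-type ATPases and 0.39 for ion channels. With upper-quartile scaling, lower genes were 0 for vitamins, 1 for amino acids, 2 for nucleosides, 1 for mTORC1 sensing and 725 for all genes, and medians -0.18 for members, -0.21 for inorganic ions, -0.24 for nucleosides, -0.084 for P-type ATPases and 0.54 for ion channels. With RLE scaling and with DESeq2, amino acids had 1 lower gene, and medians were -0.21 for members and -0.24 for inorganic ions. With limma-voom the ATF4 list had 1 lower gene.

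The sample titles number the libraries but do not state whether equal numbers mark a pair. Deviations of same-numbered libraries correlated at 0.279, -0.281 and 0.18, and not every library correlated best with its own number. With so few libraries per group, these correlations cannot decide whether the numbers pair the libraries. With the replicate block, 19 members were higher and 19 lower, inorganic ions had 4 lower, ion channels 2 and the ATF4 list 1.

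Leaving out 1 library gave, for higher genes, 5 to 20 members, 0 to 4 amino acid, 1 to 5 vitamin, 1 to 3 nucleoside, 0 to 1 metal, 0 to 3 genes that are not carriers, 3 to 6 ABC, 1 to 3 ion channel and 0 to 5 ATF4 genes, and 730 to 1824 of all genes. For lower genes it gave 7 to 22 members, 1 to 3 inorganic ion, 2 to 4 sugar, 0 to 2 vitamin, 1 to 4 amino acid, 1 to 5 nucleoside, 0 to 1 genes that are not carriers, 2 to 6 ABC, 2 to 6 P-type ATPase, 2 to 6 Mfsd and Slco, 0 to 2 ion channel, 0 to 6 mTORC1 sensing, 0 to 3 ATF4 and 0 to 1 MYC network genes, and 351 to 1458 of all genes. Medians ran from -0.27 to -0.16 for members, -0.38 to -0.22 for inorganic ions, -0.33 to -0.19 for nucleosides, 0.32 to 0.50 for the genes that are not carriers, -0.22 to -0.13 for P-type ATPases and 0.39 to 0.53 for ion channels.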

Other observations

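UTX TCD replicate 2 held the highest or the lowest of the 6 values for 33 of 53 members (62.3%) and for 2925 of 4118 genes (71%). UTX TCD replicate 1 did so for 6 members (11.3%, all genes 9.62%) and UTX TCD replicate 3 for 16 (30.2%, all genes 21.2%). UTX TCD replicate 2 was the highest for Slc6a9, Slc14a1, Slc38a2 and Slc46a3 and the lowest for Slc5a6, Slc35a4, Slc16a1 and Slc29a3, genes chosen after their values were seen.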
